A study of Mus musculus with 9 samples.

Results

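The genes described here are the ligands, receptors and Smad proteins of the BMP and TGF-beta pathways together with the Id genes. They were chosen by symbol: every mouse gene whose symbol starts with Bmp, Gdf, Smad or Tgfb followed by a digit, or with Bmpr or Tgfbr, plus Id1, Id2, Id3 and Id4. The rule matched 47 genes in the gene table, of which 43 had a probe on the array and 34 were tested, out of 14059 genes tested in all. Of the 13 genes not tested, Gdf5, Tgfb1i1, Tgfbr3l and the pseudogene Bmp4-ps matched no probe, and Gdf6, Bmp8b, Tgfbr3, Bmp10, Gdf3, Bmp5, Gdf2 and Bmp15 were not well above background on any array. Bmp8a was well above background on 2 of 9 arrays, 1 treated with bicuculline and 1 control, and was not tested either.

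BMPs, GDFs and TGF-betas are secreted dimers that bind pairs of type I and type II receptor kinases. BMP receptors phosphorylate Smad1, Smad5 and Smad9, TGF-beta and activin receptors phosphorylate Smad2 and Smad3, and both sets enter the nucleus with Smad4, while Smad6 and Smad7 are induced by the pathway and block it. The Id genes are classic BMP targets: they encode helix-loop-helix proteins with no DNA-binding region, which pair with E proteins and hold back neuronal differentiation factors in the developing cortex.

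Cortical neurons of C57bl/6 mice were taken at embryonic day 15, kept in culture for 12 days and then treated for 6 h. The bicuculline group received 25 µM bicuculline, which blocks GABA-A receptors and so raises firing in a network of neurons. The KCl group received 50 mM potassium chloride, which depolarises the membrane directly, and the control group received no treatment. No group carried a genetic change, per the labels. Each group had 3 arrays, numbered 1 to 3, and nothing in the labels says that these came from separate cultures, so the p-values measure how these arrays vary, and that variation may be technical. Signals below are background-subtracted intensities scaled so that the 75th percentile of each array is 1000. They can be compared between arrays for 1 probe but not between genes, and in these bulk RNA samples fewer cells of a type and less RNA per cell cannot be told apart.

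Signal was well above background at 65.0% to 75.9% of non-control spots, depending on the array, and no spot was saturated. The unscaled 75th percentile ran between 1586 and 2049 on the 6 treated arrays and between 1804 and 3087 on the control arrays. The arrays lay on 3 slides: slide 1 held bicuculline 1 and 2 with control 1 and 2, slide 2 held bicuculline 3, KCl 1 and 2 and control 3, and slide 3 held KCl 3 alone. Summed signals of 12 neuronal markers, all tested, spanned 200916 to 211803 with bicuculline and 210238 to 217151 with KCl, against 179225 to 190191 in control. Nefl had means of 46416 with bicuculline and 43338 with KCl, against 16231 in control. With KCl this 1 gene makes up most of the difference between the sums. With bicuculline its rise is larger than that difference, so the other neuronal markers together were lower than in control. By gene, 2 neuronal markers were called higher and 5 lower with bicuculline, and 6 higher and 3 lower with KCl. Over all genes tested, 17.4% were called higher and 27.0% lower with bicuculline, and 35.8% and 36.0% with KCl. Astrocyte markers were also present, 12 of 12 tested, with sums of 184306 to 185553 with bicuculline and 211343 to 220407 with KCl, against 182834 to 197799 in control, so the cultures were not neurons alone.

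With bicuculline Bmp3, Smad7 and Bmp2 rose and Id2 fell by at least 0.5 on the log2 scale. With KCl Bmp3, Smad7, Smad6 and Bmp2 rose and Gdf9 and Tgfbrap1 fell by at least that much. Bmp4 and Tgfb1, both dim, also rose that much with KCl, in calls lost when single arrays were left out. Smad9 and Gdf7 were called with KCl too, but each was near background in at least 1 group. Smad9 has a bound only, and the fold of Gdf7 is uncertain. A gene was called changed where its adjusted p was below 0.05 in limma's moderated test, which was fitted over all 14059 genes and all 9 arrays with Benjamini-Hochberg adjustment within each comparison. With bicuculline 17 of the 34 genes were called, 9 higher and 8 lower. That is 50.0%, against 44.4% of all genes tested (17.4% higher and 27.0% lower), so the share of pathway genes was close to that of the array. With KCl 21 were called, 14 higher and 7 lower, which is 61.8% against 71.8% of all genes (35.8% higher and 36.0% lower). The median change of the 34 genes on the log2 scale was 0.03 with bicuculline and 0.08 with KCl, beside -0.03 and 0.02 for all genes. A called change of at least 0.5 on the log2 scale was found for 4 of the 34 genes with bicuculline, where 9.15% of all genes reached that size, and for 10 with KCl, where 29.9% did. The 10 include Smad9, which has a bound only, and Gdf7, whose fold is uncertain. Correcting the background by normexp left calls for Bmp3 and Smad7 with bicuculline and for Bmp2, Bmp3, Bmpr2, Smad6 and Smad7 with KCl, so every other call of these 34 genes against control was lost under it. The 3 arrays of bicuculline lay wholly above or below control for 19 of the 34 genes (56.9% of all genes), and those of KCl for 22 (74.8% of all genes).

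**Figure D1:**
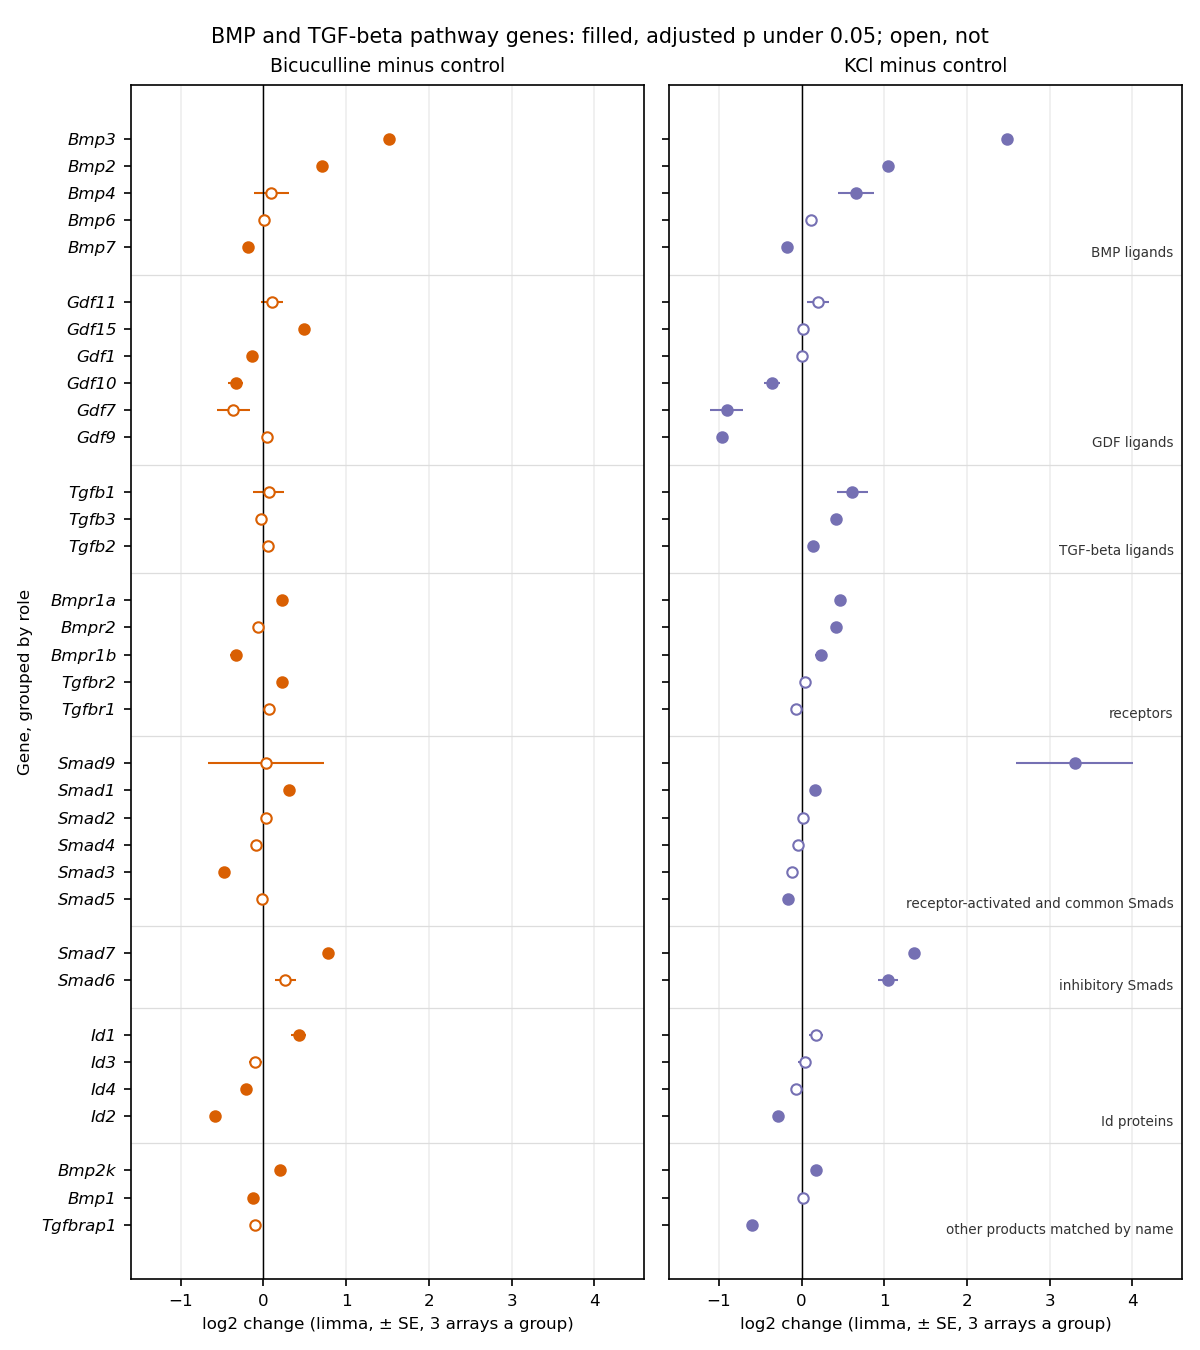
Points are the log2 change of each of the 34 tested genes with bicuculline (left) and KCl (right) against control, with standard errors, 3 arrays a group, and filled where the adjusted p is under 0.05. Bmp3, Smad7 and Bmp2 lie to the right in both panels, and the wide bar belongs to Smad9, whose control and bicuculline arrays were all near background, so that its position is no measured fold.

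The BMP ligands gave the largest change in the set that was measured above background in every group. Bmp3, an atypical member that antagonises osteogenic BMPs, had signals of 584, 598 and 641 with bicuculline and of 1242, 1149 and 1159 with KCl, against 216, 202 and 216 in control. The 3 groups did not overlap, and KCl stood above bicuculline. The log2 change of Bmp3 was 1.52 ± 0.05 (SE) with bicuculline, 2.88-fold, with an adjusted p of 4.6e-07, and 2.49 ± 0.05 with KCl, 5.60-fold, with an adjusted p of 1.5e-08. Bmp2, which signals through Smad1, Smad5 and Smad9, had signals of 142, 136 and 142 with bicuculline and of 169.9, 184 and 175 with KCl, against 83.5, 85.5 and 88.2 in control. Again every treated array was above every control array, and every KCl array was above every bicuculline array. Bmp2 rose by 0.71 ± 0.04 on the log2 scale with bicuculline (1.63-fold, adjusted p = 7.1e-06) and by 1.04 ± 0.04 with KCl (2.06-fold, adjusted p = 2.7e-07).

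The other BMP ligands moved less. Bmp4, the close relative of Bmp2, was dim, with signals of 42.6, 45.8 and 64.0 with bicuculline and of 80.1, 81.8 and 61.4 with KCl, against 40.4, 41.5 and 61.0 in control. The third array of bicuculline and of control, both on slide 2, was higher than its partners. KCl arrays 1 and 2, also on slide 2, were higher than KCl array 3. KCl lay above control by a margin of less than 1 unit, and within slide 2 its log2 difference from control was 0.41. The log2 change of Bmp4 with KCl was 0.66 ± 0.21 (adjusted p = 0.024), and it missed the threshold without KCl array 1 (adjusted p = 0.070) or 2 (0.073) without control array 1 (0.079) or 2 (0.077), and under spike-in scaling (0.066). With bicuculline it was 0.10 ± 0.21 (adjusted p = 0.76). Bmp7, a ligand best known from kidney and eye development, was lower by a similar amount in both treatments: its signals were 718, 770.3 and 792 with bicuculline and 755, 755 and 773 with KCl, against 862, 866 and 854 in control. All 6 treated arrays were below all 3 control arrays, and Bmp7 fell by 0.18 ± 0.04 on the log2 scale with bicuculline (adjusted p = 0.0065) and fell by 0.18 ± 0.04 with KCl (0.0038), the bicuculline call being lost under spike-in scaling (0.22). Bmp6 passed in neither comparison, with changes of 0.01 with bicuculline and 0.12 ± 0.06 with KCl (adjusted p = 0.89 and 0.091), the second of which passed without KCl array 2 (0.042).

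Among the 6 tested GDF ligands, 1 was higher and 2 were lower with bicuculline, and 3 were lower with KCl. Gdf9, known as an oocyte factor that drives follicle growth, had signals of 405, 415 and 401 with bicuculline and of 190.3, 219.6 and 202 with KCl, against 407, 386 and 396 in control. The KCl arrays were far below the rest, and the bicuculline and control arrays overlapped. Gdf9 fell by 0.96 ± 0.05 on the log2 scale with KCl (adjusted p = 1.4e-06) and its change with bicuculline was 0.04 ± 0.05 (0.62). Gdf7, a roof plate ligand that patterns dorsal spinal interneurons, was near background, with signals of 24.5, 23.3 and 29.9 with bicuculline and of 19.8, 21.6 and 13.1 with KCl, against 28.1, 35.2 and 36.9 in control. No KCl array was well above background for Gdf7, so its level there is uncertain. The KCl signals were brighter than the lowest signal counted as well above background on those arrays, so no bound apart from the fit was available. The fitted fold was 1.87-fold lower with KCl (adjusted p = 0.0040), which is not a minimum. Gdf7 passed the filter on dim probes through the bicuculline and control arrays alone, where it was brighter, so its p-value is not independent of that filter. Under normexp the direction turned, to a log2 change of 0.88 that missed the threshold.

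Gdf10, also called BMP3b, had signals of 198, 177 and 186 with bicuculline and of 186, 201 and 167 with KCl, against 222, 267 and 221 in control. Every treated array of Gdf10 was below every control array. The log2 change was -0.34 ± 0.09 with bicuculline (adjusted p = 0.021, and 0.051 with the replicate number as a block in the 6 arrays compared) and -0.36 ± 0.09 with KCl (adjusted p = 0.0092), which missed the threshold with slide as a block (-0.24, 0.11) and turned to 0.16 under normexp. With bicuculline it also missed under spike-in scaling (0.056). Gdf15, a stress-induced hormone that acts through the receptor Gfral, had signals of 187, 214 and 200.3 with bicuculline and of 136, 148 and 147 with KCl, against 137, 139.8 and 149 in control. Bicuculline stood apart from the other arrays and KCl overlapped with control. Gdf15 rose by 0.49 ± 0.06 on the log2 scale with bicuculline (1.41-fold, adjusted p = 3.7e-04), beside a change of 0.02 ± 0.06 with KCl (0.82). Gdf1, a left-right patterning ligand whose transcript in brain also encodes the ceramide synthase Cers1, changed by -0.14 ± 0.04 with bicuculline (adjusted p = 0.032, and 0.063 with the replicate number as a block in 6 arrays). Leaving out any 1 array of bicuculline, or control array 2 or 3, also put Gdf1 past 0.05, at 0.062 to 0.10, as did median (0.070) and spike-in scaling (0.34). Likewise Gdf10 with bicuculline had an adjusted p of 0.070 without bicuculline array 2, 0.056 without bicuculline array 3 and 0.052 without control array 2. Gdf11, a relative of myostatin, passed in neither comparison, at 0.11 ± 0.14 with bicuculline and 0.20 with KCl.

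All 3 TGF-beta ligands were called higher with KCl and none with bicuculline. Over all genes tested, 35.8% were called higher with KCl and 17.4% with bicuculline. Under spike-in scaling none of the 3 KCl calls held. Tgfb3 had signals of 2359, 2461 and 2369 with bicuculline and of 3451, 3112 and 3249.9 with KCl, against 2501, 2357 and 2464 in control. KCl lay above both other groups, which overlapped. Tgfb3 rose by 0.42 ± 0.05 on the log2 scale with KCl (1.34-fold, adjusted p = 6.4e-05), and its change with bicuculline was -0.03 ± 0.05 (0.69). The call was lost under spike-in scaling, at 0.19 (0.12). Tgfb1, the ligand best known from immune and wound responses, was dim, at 25.9, 36.9 and 33.0 with bicuculline and 35.8, 58.7 and 47.6 with KCl, against 28.1, 31.6 and 31.3 in control. The KCl arrays were above control but spread widely, and 1 of them lay within the bicuculline range. The log2 change of Tgfb1 was 0.62 ± 0.19 with KCl (adjusted p = 0.019), missed the threshold without KCl array 2 (0.055) or 3 (0.051), without control array 1 (0.058), with slide as a block (0.14) and under quantile (0.088) and spike-in scaling (0.066), and was 0.06 ± 0.19 with bicuculline (0.83). Tgfb2 changed by 0.14 ± 0.05 with KCl (adjusted p = 0.033), a direction that turned to -0.02 under median scaling and -0.09 under spike-in scaling. Its call was lost without KCl array 1 (0.071) and without control array 1 (0.081), 2 (0.067) or 3 (0.069).

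Of the 5 tested receptors, the BMP type I receptor Bmpr1a was higher in both treatments. Its signals were 3181, 3343 and 3400.4 with bicuculline and 3922, 3744 and 3982 with KCl, against 2731, 2813 and 2923 in control. The groups did not overlap and KCl was again the highest, with log2 changes of 0.23 ± 0.04 with bicuculline (adjusted p = 0.0029) and 0.46 ± 0.04 with KCl (2.5e-05), the bicuculline call being lost under spike-in scaling (0.11). A second, dimmer Bmpr1a probe gave 0.32 and 0.89. Bmpr1b, the other BMP type I receptor, was the single gene of the set called in opposite directions. It had signals of 252, 264 and 258 with bicuculline and of 393, 411 and 346 with KCl, against 346, 318 and 313 in control. Bicuculline lay wholly below control, while the lowest KCl array and the highest control array were less than 1 unit apart. The change of Bmpr1b was -0.34 ± 0.07 with bicuculline (adjusted p = 0.0048) and 0.23 ± 0.07 with KCl (0.015), and KCl exceeded bicuculline by 0.57 ± 0.07 (1.8e-04). The call against control with KCl was lost under median scaling (0.07, adjusted p = 0.38) and spike-in scaling (0.00, 0.98), and that with bicuculline under spike-in scaling (-0.34, 0.067), so the opposite calls rest on the scaling used.

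Bmpr2, the type II receptor for BMPs, had signals of 448, 445 and 472 with bicuculline and of 618, 602 and 689 with KCl, against 459, 502 and 466 in control. Only the KCl arrays stood apart from control, and Bmpr2 rose by 0.42 ± 0.06 on the log2 scale (adjusted p = 3.5e-04), beside -0.06 ± 0.06 with bicuculline (0.44). Under spike-in scaling the KCl change was 0.19 and missed the threshold (0.11). The TGF-beta receptors followed another pattern. Tgfbr2, their type II receptor, had signals of 581, 616 and 566 with bicuculline and of 532, 509.6 and 509.8 with KCl, against 489.5, 548 and 473 in control. The bicuculline arrays were above all control arrays and KCl overlapped with control. Tgfbr2 changed by 0.22 ± 0.06 with bicuculline (adjusted p = 0.017) and by 0.04 with KCl (0.55). The bicuculline call was lost without bicuculline array 2 (0.059) without control array 1 (0.056) or 3 (0.056), and under median (0.12) and spike-in scaling (0.11). Tgfbr1, the type I partner, was at 0.06 and -0.07 and passed in neither comparison with control, though its KCl change did under median scaling (-0.23, adjusted p = 0.011), spike-in scaling (-0.30, 0.019) and without control array 3 (-0.09, 0.046).

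Both inhibitory Smads rose with KCl, and Smad7 rose with bicuculline as well. Smad7, which brings ubiquitin ligases to the type I receptors of both branches, had signals of 567, 562 and 586 with bicuculline and of 913, 816 and 851 with KCl, against 324, 333 and 345 in control. The 3 groups were fully separate and ordered with KCl highest. Smad7 rose by 0.78 ± 0.05 on the log2 scale with bicuculline (1.71-fold, adjusted p = 8.5e-06) and by 1.36 ± 0.05 with KCl (2.57-fold, adjusted p = 1.4e-07). Smad6, which acts mainly against BMP receptors, had signals of 193, 199 and 195 with bicuculline and of 372, 301 and 339.9 with KCl, against 148, 146 and 199.7 in control. KCl was above all other arrays, while control array 3 reached the bicuculline level. Smad6 rose by 1.05 ± 0.13 with KCl (2.06-fold, adjusted p = 1.3e-04), while within slide 2 alone the difference was 0.74. With bicuculline its change was 0.27 ± 0.13 (adjusted p = 0.13), and without control array 3 it was 0.41 and passed the threshold (0.0077).

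The promoter window of Smad6 is shown because it was the only one of the set with the palindromic Smad box. RefSeq windows of 300 bases, 250 before to 50 after the annotated start in GRCm38.p6, were found for 31 of the 47 genes (39 windows), and they were searched on both strands for 4 motifs. These were GTCTAGAC, the palindromic Smad box, GGCGCC, a GC-rich element bound by BMP-activated Smads, TGACG, the core of the element bound by CREB, and TGANTCA, the AP-1 element of Fos and Jun. GTCTAGAC was present in 0.213% of all 32851 windows, and in Smad6 it began 4 bases before the start. The Smad6 window lies at chr9:64022010-64022309 on the minus strand, and capitals mark the Smad box.
Smad6: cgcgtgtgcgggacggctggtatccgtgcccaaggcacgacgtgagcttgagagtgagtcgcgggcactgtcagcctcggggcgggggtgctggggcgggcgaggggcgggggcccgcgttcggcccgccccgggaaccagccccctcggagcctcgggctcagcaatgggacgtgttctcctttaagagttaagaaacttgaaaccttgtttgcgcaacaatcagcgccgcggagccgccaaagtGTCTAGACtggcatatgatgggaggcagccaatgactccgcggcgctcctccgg
GGCGCC was present in 12 of the 39 windows (30.8%) and in 11.9% of all windows, TGACG in 10 (25.6%) and in 20.8% of all windows, and TGANTCA in 0 of the 39 and in 7.81% of all windows. A match describes the letters of the window and is not evidence of binding.

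Of the 6 receptor-activated and common Smads, Smad9 was detected with KCl only. Smad9, a BMP-activated Smad also called Smad8, had signals of 3.61, 4.99 and 8.01 with bicuculline and of 175, 30.3 and 24.5 with KCl, against 3.84, 5.43 and 6.48 in control. It was well above background on the 3 KCl arrays and on none of the other 6, and KCl array 1 was far above the other KCl arrays. Bounds were set against the faintest spot well above background on each array, or the Smad9 signal there if higher. By these bounds KCl was 3.64-fold higher than control and 3.98-fold higher than bicuculline, though neither is a guaranteed minimum. The fit gave adjusted p-values of 0.0033 and 0.0042. Without KCl array 1 these bounds were 1.96 and 2.15. Smad9 passed the filter on dim probes through the KCl arrays alone, so that a difference was a condition of its being tested, and no fitted fold is given. The Smad9 window, shown for the gene that was detected with KCl alone, lies at chr3:54755332-54755631 on the plus strand. Capitals mark GGCGCC, beginning 51 bases before the start, and TGACG, beginning at base 8 after it.
Smad9: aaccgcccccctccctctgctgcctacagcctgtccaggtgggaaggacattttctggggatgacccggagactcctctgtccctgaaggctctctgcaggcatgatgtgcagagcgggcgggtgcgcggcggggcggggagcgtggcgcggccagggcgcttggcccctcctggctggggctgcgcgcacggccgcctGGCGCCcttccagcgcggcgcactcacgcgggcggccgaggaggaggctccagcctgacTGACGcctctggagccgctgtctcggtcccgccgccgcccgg

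Smad1 and Smad3, one from each branch, changed in opposite directions with bicuculline on their brightest probes. Smad1 had signals of 12510.5, 12361 and 12181 with bicuculline and of 11363, 11025 and 11122 with KCl, against 9595, 10459 and 9811 in control. Every treated array was above every control array, here with bicuculline the highest. The change of Smad1 was 0.31 ± 0.04 with bicuculline (adjusted p = 3.4e-04) and 0.17 ± 0.04 with KCl (0.0043), the second missing the threshold under quantile (0.06, 0.10) and median scaling (0.01, 0.93) and turning to -0.06 under spike-in scaling. A second, dimmer Smad1 probe, above background on 9 of 9 arrays, was not called. It gave 0.10 with bicuculline and 0.05 with KCl (limma over all kept probes, adjusted p = 0.17 and 0.38). Smad3, which carries TGF-beta and activin signals, had signals of 382, 402 and 372 with bicuculline and of 495, 509 and 480.2 with KCl, against 537, 563 and 506 in control. Bicuculline was below all other arrays and KCl overlapped with control. Smad3 fell by 0.47 ± 0.05 on the log2 scale with bicuculline (adjusted p = 1.5e-04), while a dim second probe, above background on 7 of 9 arrays, gave 0.13 and the mean of both gave -0.17 (0.79). The change of Smad3 with KCl was -0.11 ± 0.05 (0.069), which passed without control array 3 (0.027) and under median scaling (0.0095) and spike-in scaling (0.0087).

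Smad5 was called lower with KCl at -0.16 ± 0.03 (adjusted p = 6.6e-04), but its 3 probes disagreed: the others gave -0.11 and 0.70, and their mean gave 0.14. With bicuculline Smad5 was at -0.01 (0.76). Smad2, the partner of Smad3, was at 0.03 with bicuculline and 0.01 with KCl (adjusted p = 0.75 and 0.86). Smad4, the common Smad, was at -0.08 and -0.04 (0.087 and 0.37). Smad4 did pass as lower with KCl under median (-0.20, 0.027) and spike-in scaling (-0.27, 0.036), and with bicuculline on the mean of its probes (-0.10, 0.021).

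The 4 Id genes did not move as a group. With bicuculline Id1 was higher, Id2 and Id4 were lower and Id3 was not called, and with KCl Id2 was called lower under the scaling used. Id1 had signals of 1193, 1416 and 1296 with bicuculline and of 1225, 1084 and 979 with KCl, against 976, 943 and 983 in control. All bicuculline arrays were above control, whereas the KCl arrays ran from the bicuculline level to the control level. Id1 rose by 0.42 ± 0.09 on the log2 scale with bicuculline (1.34-fold, adjusted p = 0.0055), and its change with KCl was 0.17 ± 0.09 (0.11), or 0.25 and past the threshold (0.029) without KCl array 3. It also passed on the mean of its probes (0.21, 0.035).

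Id2 had signals of 7813, 7899 and 7769 with bicuculline and of 9851, 9704 and 9411 with KCl, against 11269, 12288 and 11639 in control. The 3 groups were separate, with bicuculline the lowest. Id2 fell by 0.58 ± 0.04 on the log2 scale with bicuculline (adjusted p = 1.3e-05) and fell by 0.28 ± 0.04 with KCl (2.6e-04), and a second probe gave -0.60 and -0.21. Id3 had signals of 2113, 2486 and 2226 with bicuculline and of 2318, 2523 and 2654 with KCl, against 2306, 2606 and 2382 in control. All groups of Id3 overlapped, with changes of -0.10 ± 0.08 (adjusted p = 0.36) and 0.04 ± 0.08 (0.67). Id4 had signals of 6967, 7308 and 7021 with bicuculline and of 8019, 7497 and 7990.1 with KCl, against 8490.1, 8040.1 and 8176 in control. Both treatments lay below control on every array, and Id4 fell by 0.21 ± 0.04 with bicuculline (adjusted p = 0.0031). With KCl its change was -0.07 ± 0.04 (0.13), while the second probe of Id4 gave -0.69. Id4 with KCl passed as lower under quantile (-0.16, adjusted p = 0.011), median (-0.23, 0.019) and spike-in scaling (-0.30, 0.025) and on the mean of its probes (-0.38, 8.5e-05), and with bicuculline its call was lost under spike-in scaling (0.19).

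**Figure D2:**
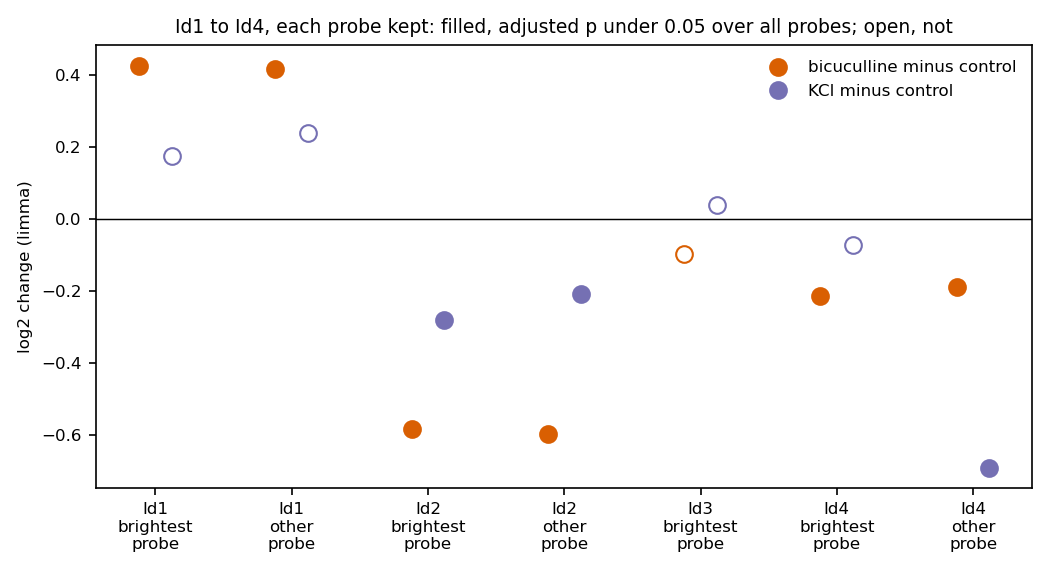
Points are the log2 change of each kept Id probe with bicuculline and with KCl against control, from limma fitted over all kept probes, filled where the adjusted p is under 0.05. Both probes of Id1 are above 0 with bicuculline, both of Id2 are below 0, and the pair for Id4 disagrees in size with KCl (-0.07 and -0.69).

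The windows of Id2 and Id3 are shown to set a gene that changed beside one that was not called. The Id2 window lies at chr12:25096043-25096342 on the minus strand and holds GGCGCC, in capitals, beginning 231 bases before the start. The Id3 window lies at chr4:136143572-136143871 on the plus strand and holds TGACG on the other strand, in capitals as it reads on this strand, beginning 170 bases before the start. Id2 and Id3 were picked with the calls known, and a link between motif and call was not tested. GGCGCC was also present for Id4, called lower with bicuculline, and for Tgfbr1, called in neither treatment. TGACG was also present for Id4 and for Smad1, called higher in both treatments.
Id2: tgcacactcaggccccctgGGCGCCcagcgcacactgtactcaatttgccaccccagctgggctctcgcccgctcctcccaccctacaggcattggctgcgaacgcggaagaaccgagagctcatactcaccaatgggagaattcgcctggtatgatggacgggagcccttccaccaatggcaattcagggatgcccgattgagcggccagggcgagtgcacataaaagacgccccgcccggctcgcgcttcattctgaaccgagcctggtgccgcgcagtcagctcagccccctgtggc
Id3: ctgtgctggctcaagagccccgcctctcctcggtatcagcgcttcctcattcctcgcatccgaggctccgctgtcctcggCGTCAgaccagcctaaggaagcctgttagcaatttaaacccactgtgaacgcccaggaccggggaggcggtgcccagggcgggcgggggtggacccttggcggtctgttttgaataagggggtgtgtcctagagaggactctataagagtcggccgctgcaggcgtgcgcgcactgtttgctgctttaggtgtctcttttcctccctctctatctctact

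The remaining genes share a name with the pathway. Tgfbrap1, which binds TGF-beta receptors and belongs to an endosomal tethering complex, had signals of 488, 515 and 478 with bicuculline and of 339, 351 and 357 with KCl, against 522, 553 and 514 in control. The KCl arrays were well below all others, which overlapped. Tgfbrap1 fell by 0.60 ± 0.04 on the log2 scale with KCl (adjusted p = 5.8e-06), and its change with bicuculline was -0.10 ± 0.04 (0.091). Bmp2k, a kinase linked to clathrin-mediated uptake, changed by 0.20 ± 0.05 with bicuculline (adjusted p = 0.011) and by 0.17 ± 0.05 with KCl (0.015), the second turning to -0.06 under spike-in scaling and missing the threshold without control array 2 (0.052), with slide as a block (0.065) and under median scaling (0.91). The bicuculline call of Bmp2k was lost under median (0.12) and spike-in scaling (0.23). Bmp1, a metalloprotease that trims procollagens and the BMP antagonist chordin, changed by -0.13 ± 0.03 with bicuculline (adjusted p = 0.0094) and 0.02 with KCl (0.57). A second Bmp1 probe, against a non-coding transcript, gave 0.29 and 1.06, and the mean of both turned the bicuculline change to 0.08 and made the KCl change 0.54 (adjusted p = 2.5e-05). The bicuculline call was also lost under median (0.085) and spike-in scaling (0.43).

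**Figure D3:**
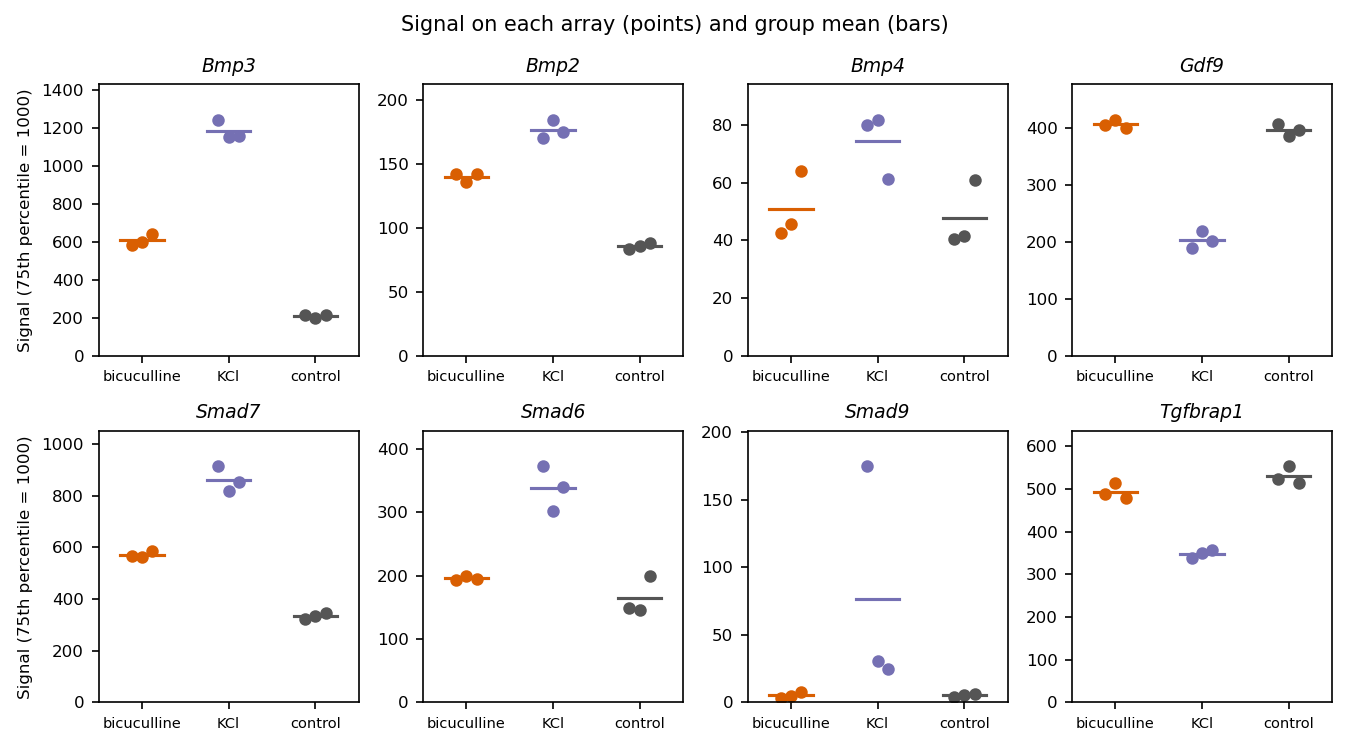
Points are the scaled signals on each array and bars are group means, 3 arrays a group, for Bmp3, Bmp2, Bmp4, Gdf9, Smad7, Smad6, Smad9 and Tgfbrap1, each panel starting at 0. KCl lies above bicuculline and bicuculline above control, without overlap, for Bmp3, Bmp2 and Smad7, and 1 KCl array of Smad9 reaches 175 while the other two are at 30.3 and 24.5.

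Set directly against bicuculline, KCl gave higher values for 16 of the 34 genes and lower values for 9 (73.5% called, against 64.9% of all genes, 36.1% higher and 28.8% lower). Both sets of arrays lay apart for 22 genes (70.0% of all genes). The median log2 difference was 0.12 for the 34 genes and 0.07 for all genes. Bmp3 was higher with KCl than with bicuculline by 0.96 ± 0.05 (adjusted p = 2.8e-06), Smad6 by 0.78 ± 0.13 (9.3e-04), Smad7 by 0.59 ± 0.05 (2.1e-05), Bmpr2 by 0.48 ± 0.06 (2.3e-04) and Tgfb3 by 0.45 ± 0.05 (7.2e-05). Bmp2 (0.33 ± 0.04, 2.2e-04) and Smad3 (0.36 ± 0.05, 3.8e-04) were also higher, though for Smad3 the mean of its probes turned this to -0.09. Under spike-in scaling these calls were lost for Bmpr2 (0.25, adjusted p = 0.053), Tgfb3 (0.22, 0.10), Bmp2 (0.10, 0.41) and Smad3 (0.13, 0.27). The log2 difference, KCl minus bicuculline, was -0.997 ± 0.05 for Gdf9 (2.8e-06), -0.50 ± 0.04 for Tgfbrap1 (2.9e-05) and -0.48 ± 0.06 for Gdf15 (2.5e-04), the last turning to 0.17 under normexp. Id2 was higher with KCl by 0.30 ± 0.04 (2.4e-04), and by 0.07 without a call under spike-in scaling (0.49). For Id1 the difference was -0.25 ± 0.09 (0.037), which missed the threshold with slide as a block (0.18) and without KCl array 2 (0.083) or 3 (0.11) or bicuculline array 2 (0.12) or 3 (0.076).

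Both treatments were compared with the same control arrays, so their changes are given side by side and not correlated. Of the pathway genes, 6 were called higher in both (Bmp2, Bmp2k, Bmp3, Smad1, Bmpr1a and Smad7), which is 17.6% against 13.5% of all genes tested. Bmp7, Id2 and Gdf10 were lower in both (8.82%, against 19.3%), and Bmpr1b was lower with bicuculline and higher with KCl (2.94%, against 4.49% of all genes with opposite calls). Another 7 were called with bicuculline alone (20.6%, against 7.10%) and 11 with KCl alone (32.4%, against 34.5%), and 6 were called in neither (Tgfbr1, Id3, Gdf11, Bmp6, Smad4 and Smad2, 17.6%, against 21.1%). These shares are a description of calls and were not tested. Within slides, all 17 genes called with bicuculline kept their sign on slide 1 and on slide 2, and all 21 called with KCl kept theirs on slide 2. These are the arrays that gave the calls, so the agreement is no independent check. Slide 1 set 2 bicuculline arrays against 2 controls, and slide 2 set 1 bicuculline and 2 KCl arrays against 1 control. For Bmp3 the bicuculline difference was 1.501 on slide 1 and 1.57 on slide 2, and the KCl difference was 2.47 on slide 2. Smad6, not called with bicuculline, had differences of 0.42 on slide 1 and -0.03 on slide 2.

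Other genes of the pathway gave the surroundings of these changes. For scale, 17.4% of all genes tested were called higher and 27.0% lower with bicuculline, and 35.8% and 36.0% with KCl. The counts of the lists that follow were not tested against these shares. Of 8 tested superfamily ligands outside the rule, 1 was higher and 2 were lower with bicuculline, and 3 were higher and 2 lower with KCl. Inhba, the activin A subunit, changed by 3.41 with bicuculline and 3.30 with KCl (adjusted p = 3.5e-08 and 1.4e-08), Mstn by -0.03 (0.67) and 1.03 (3.9e-07), and Inha, the inhibin subunit, by -0.42 (1.5e-05) and -0.75 (2.1e-07). Of 9 receptors and co-receptors outside the rule, 3 were higher and 2 lower with bicuculline, and 4 were higher and 3 lower with KCl. Acvr1c, a type I receptor for activin and nodal, rose by 2.15 with bicuculline and 1.84 with KCl, and Acvr1b, the main activin type I receptor, by 0.50 and 1.16. Acvr2b, a type II receptor, fell by 0.64 with bicuculline and fell by 0.85 with KCl.

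Of 25 extracellular antagonists and carriers, 4 were higher and 6 lower with bicuculline, and 15 were higher and 4 lower with KCl. Their median change was -0.02 with bicuculline and 0.38 with KCl, beside -0.03 and 0.02 for all genes. Fst, the activin-binding follistatin, rose by 1.26 with bicuculline and 2.11 with KCl. Brinp1, which responds to BMP and retinoic acid and is not itself an antagonist, rose by 0.90 and 1.23. Sost, the Wnt and BMP inhibitor sclerostin, rose by 1.19 with KCl (adjusted p = 0.0093) and was at 0.41 with bicuculline (0.34).

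Of 28 intracellular regulators, 3 were higher and 8 lower with bicuculline, and 11 were higher and 9 lower with KCl. Over all genes tested, 44.4% were called with bicuculline and 71.8% with KCl. Rnf165, a ubiquitin ligase that strengthens BMP signalling in motor axons, fell by 0.84 with bicuculline and fell by 1.52 with KCl, and Skor1, a Smad co-repressor, fell by 0.22 and fell by 0.87. Nedd4l, a ubiquitin ligase for Smad2 and Smad3, rose by 0.18 and 0.74. Of 26 reported transcriptional targets, 7 were higher and 5 lower with bicuculline, and 13 were higher and 3 lower with KCl, with medians of 0.08 and 0.31. Junb rose by 0.58 and 2.18, Ccn1 by 1.02 and 1.30 and Cdkn1a by 0.88 and 1.29, and all of these are also known as early genes of other stimuli. Of 17 bHLH factors, which include the partners of Id proteins, 4 were higher and 5 lower with bicuculline, and 8 were higher and 5 lower with KCl. Hes5, a Notch target, fell by 0.76 with bicuculline and fell by 2.51 with KCl, and Neurod1, a neuronal differentiation factor, fell by 0.79 and fell by 0.68. Bhlhe41, a clock-linked repressor, was at 0.15 with bicuculline and rose by 0.78 with KCl.

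Markers of cells other than neurons were called with KCl as well, where 35.8% of all genes were called higher and 36.0% lower. With bicuculline 17.4% of all genes were called higher and 27.0% lower. The summed signal of 11 tested vascular and fibroblast markers was 26031 to 28424 with bicuculline and 45397 to 50104 with KCl, against 26443 to 27657 in control, with 8 called higher and 1 lower with KCl and none higher and 2 lower with bicuculline. Tagln carried most of the KCl difference, with means of 29531 with KCl and 11884 with bicuculline, against 12217 in control. Tagln, Acta2, Col1a1, Col1a2 and Col3a1 were also counted above among the reported transcriptional targets. Of the defining endothelial markers in the vascular and fibroblast list, Pecam1 was never well above background and Cldn5 and Tek were not tested. The 9 tested oligodendrocyte markers summed to 14171 to 15046 with bicuculline and 18065 to 18728 with KCl, against 15437 to 15743 in control, and Mog was never well above background. The 8 tested microglial markers summed to 3341 to 4890 with bicuculline and 4802 to 7309 with KCl, against 4118 to 4362 in control, and Itgam, P2ry12, Tmem119 and Cd68 were not tested. Astrocyte markers were called higher for 5 and lower for 3 of 12 with KCl, and lower for 5 with bicuculline. The 11 tested cycling and progenitor markers summed to 76493 to 85695 with bicuculline and 95259 to 106673 with KCl, against 76264 to 84479 in control, yet 7 of them were called lower and 4 higher with KCl and 6 lower and 1 higher with bicuculline. Vim and Nes carry the sum with KCl, while Mki67, Top2a, Ccnb1, Cdk1, Sox2, Mcm2 and Hes5 were lower. The part of these cells in the changes of Bmp, Tgfb, Smad and Id genes was not tested.

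The way the arrays were scaled set the balance of calls with KCl. Among all genes, 49.9% of the KCl calls were higher under the 75th percentile used here, and 31.8% under median and 25.7% under spike-in scaling, while the median change of all genes was 0.02, -0.14 and -0.20. Among the pathway genes the KCl calls were 14 higher and 7 lower, 10 and 11 under median scaling and 6 and 11 under spike-in scaling. For bicuculline 39.2% of all calls were higher, against 50.0% under spike-in scaling and 58.8% under normexp, and between KCl and bicuculline 55.6%, against 44.5% under quantile, 34.0% under median, 19.4% under spike-in scaling and 45.2% under normexp. Bmp3 and Smad7 with either treatment, and Bmp2 and Smad6 with KCl, kept their direction and their call under every alternative tried. Id1 and Id3 with KCl lay on either side of 0 depending on the scaling.

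**Figure D4:**
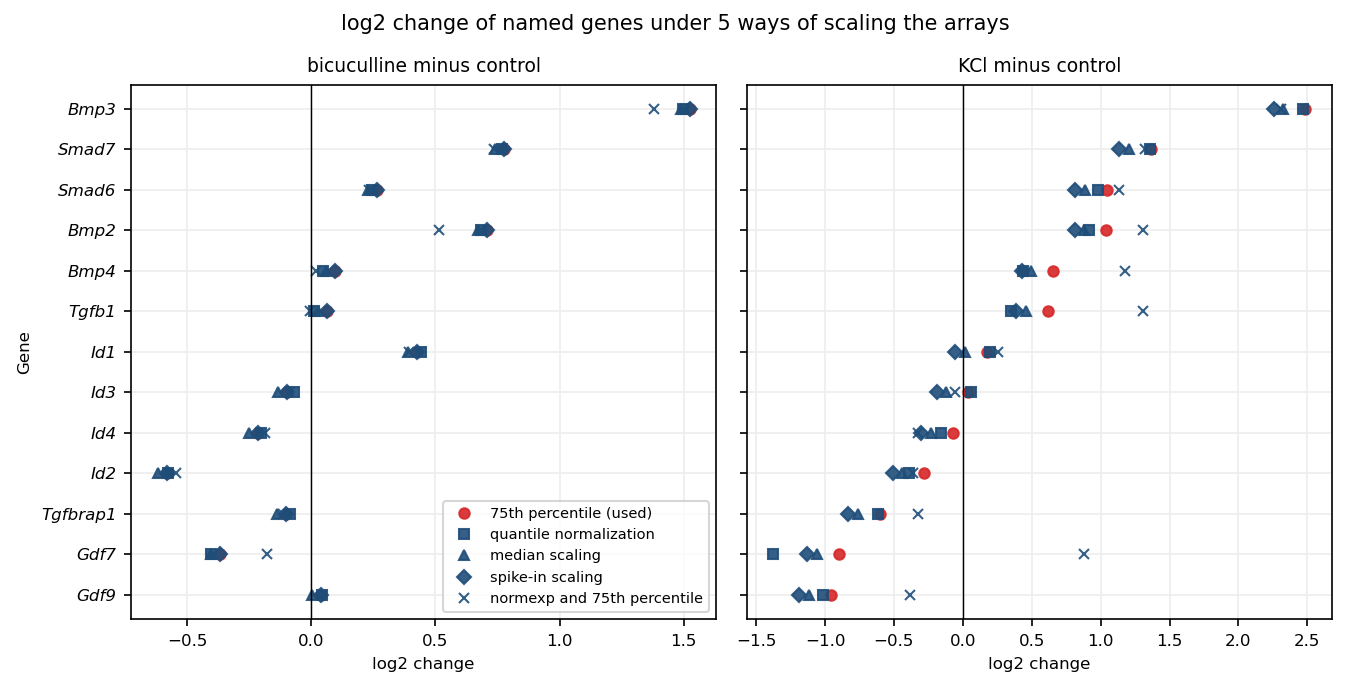
Markers are the log2 changes of the named genes other than Smad9 with bicuculline (left) and KCl (right) against control under 5 ways of scaling or background correction. Markers of Bmp3, Smad7, Smad6 and Bmp2 stay above 0 with KCl, and the KCl change of Gdf7 is -0.90 under the 75th percentile and 0.88 under normexp.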

How the data were processed

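Agilent 1-colour arrays of 3 bicuculline, 3 KCl and 3 control samples were used, grouped by the labels alone. The authors deposited processed signal intensity from Agilent Feature Extraction. Its version is 10.5.1.1 in the submitters' processing notes and 10.7.3.1 in the file headers. Background had been subtracted within each array and no scaling between arrays applied, per the file headers and the values. The deposited series table equalled this intensity on all 45018 features of each array.

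The deposited intensity was set to log2, each array's 75th percentile over 43379 non-control spots was subtracted, outlier spots were left out (39 values of tested genes) and spots of a probe were averaged. RefSeq identifiers, looked up in a GRCm38.p6 gene table, gave 1 symbol to 26880 of 41174 probes, covering 18323 genes, and 14294 are unnamed here. Kept probes were well above background on all 3 arrays of 1 or more groups and had values for 2 or more arrays in each. The brightest kept probe stood for a gene. limma 3.58.1 in R 4.3.3 was fitted to all 9 arrays without covariates, with two-sided tests and Benjamini-Hochberg adjustment over 14059 genes. The procedure was tested on simulated data. Where no array of a group was well above background, a bound on the fold sets the brighter group's mean against a floor for that group. The floor of an array is its faintest spot well above background, or the probe's own signal where that is higher. It is not a detection limit for the probe, so such a fold is not a guaranteed minimum.

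Per-array values are given for pathway genes called against control with a log2 change of at least 0.5 and for the 4 Id genes, and for others to show a role, which were chosen after their values were seen. The genes, gene lists and markers were chosen with earlier results of these data known. The number of arrays limits precision. Array numbers were checked for pairing: deviations of same-numbered arrays correlated at 0.40, 0.26 and 0.74 between bicuculline and control, which also shared slides. Between KCl and control they correlated at -0.19, -0.15 and -0.57. For bicuculline and control, pairing by number could not be told apart from the shared slides. For KCl and control the values gave no sign of pairing, but same-numbered arrays never shared a slide, so slide differences could hide it. Alternatives covered scaling, background correction (normexp on the median spot and background signals), the dim-probe filter, the probe standing for a gene, outlier spots, the variance prior, slide and replicate blocks and leaving out each array. The block within 6 arrays was added after seeing the data.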

Additional observations from a re-analysis of the deposited data

How the results depend on the processing

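With 3 arrays a group on 3 slides, and genes such as Gdf7, Tgfb1, Bmp4 and Smad9 close to background, small changes rest on few values. Of the called changes, 2 of 17 with bicuculline (Bmp3 and Smad7), 4 of 21 with KCl (Bmp2, Bmp3, Smad6 and Smad7) and 4 of 25 between KCl and bicuculline (Bmp3, Bmpr1b, Smad6 and Smad7) held under every alternative, and 7, 11 and 8 under every alternative other than normexp. Normexp left 2 pathway genes higher and 0 lower with bicuculline, 5 and 0 with KCl, and 5 and 0 between KCl and bicuculline, and over all genes 483 higher and 339 lower, 1827 and 2305, and 1099 and 1334. Spike-in scaling gave 2 pathway genes lower with bicuculline (1232 higher and 1234 lower over all genes), 6 higher and 11 lower with KCl (2176 higher over all genes) and 5 higher between KCl and bicuculline (1259 over all genes). Median scaling gave 1577 genes higher with bicuculline, 11 pathway genes lower with KCl (2942 higher over all genes) and 10 pathway genes higher between KCl and bicuculline (2501 over all genes). With the replicate number as a block in all 9 arrays the pathway counts were 9 higher and 8 lower, 15 and 8, and 15 and 7, and with the replicate block in the 6 arrays compared 9 and 7, 12 and 7, and 14 and 7. Slide as a block gave 9 and 9, 12 and 6, and 13 and 5. Leaving out 1 array in turn gave 8 to 9 higher and 6 to 8 lower with bicuculline, 11 to 14 and 7 to 9 with KCl, and 14 to 15 and 6 to 8 between KCl and bicuculline. Directions turned for Bmp1 with bicuculline (0.080, mean of probes). With KCl they turned for Tgfb2 (-0.017 median, -0.086 spike-in), Bmp2k (-0.059, spike-in), Gdf1 (-0.20, quantile), Smad1 (-0.061, spike-in), Gdf7 (0.88, normexp), Gdf10 (0.16, normexp) and Smad5 (0.14, mean of probes). Between KCl and bicuculline they turned for Tgfbr1 (0.14), Gdf15 (0.17) and Gdf7 (1.06) under normexp, for Gdf1 (-0.040 quantile, -0.081 spike-in, -0.041 normexp), Id4 (-0.086 spike-in, -0.13 normexp, -0.18 mean of probes) and Bmp1 (-0.083 spike-in, -0.031 normexp), and with the mean of probes for Bmp2k (0.16), Smad3 (-0.093) and Smad5 (0.094). Gdf11 with KCl passed with the replicate block in 9 arrays (adjusted p = 0.0053) and in 6 arrays (0.027). Deviations of same-numbered KCl and control arrays gave no sign of pairing, with correlations of -0.19, -0.15 and -0.57. These arrays never shared a slide, so slide differences could hide a pairing. With bicuculline, Gdf7 passed with slide as a block (adjusted p = 0.019) and with the replicate block in 6 arrays (0.033). The cause of these differences was not tested.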
